A study of Mus musculus with 2 samples.

Results

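PPARγ, a ligand-activated nuclear receptor of lipid metabolism, was mapped in mouse TH2 cells, and the 56 genes described here are those through which such cells receive cytokines. They comprise 46 listed interleukin, interferon and gp130 receptor chains and 10 genes of the JAK kinases and STAT transcription factors. They were chosen by name, and a peak was counted for a gene when that gene had the nearest protein-coding transcription start site (TSS) to the peak centre, within 100 kb. Under that rule 12 of the 2537 deposited peaks belonged to 9 of the 56 genes. The tested sample was chromatin from naive C57BL/6J CD4+ T cells activated under TH2 conditions, given a retrovirus for TY1-tagged PPARγ on days 1 and 2 and collected on day 4, with an antibody to the TY1 tag. The background sample was input chromatin of the same transduced cells, without antibody, which the authors used in peak calling. Both carried the introduced receptor, so the peaks describe overexpressed, tagged PPARγ, and no cells without it were compared. There was 1 ChIP library and 1 input library, so no spread between cultures is known and no difference was tested; repeats that the series text mentions were not analysed here. The ChIP library held 10229438 tags, and 0.534% of them fell inside peaks, which makes a mean of 21.5 tags for each peak. The rows of the peak list carry no strength, so each peak counts once.

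Cytokine receptors of this kind pair their chains at the cell surface, and kinases of the JAK family bound to the chains then phosphorylate STAT factors, which enter the nucleus. The chains are shared: the common gamma chain Il2rg serves the receptors for IL-2, IL-4, IL-7, IL-9, IL-15 and IL-21, and gp130, encoded by Il6st, serves those for IL-6, IL-11, LIF and related cytokines. In TH2 cells IL-4 acts through Il4ra and STAT6, IL-2 acts through Il2ra and STAT5, and IL-33 acts through Il1rl1, a receptor of the IL-1 family that does not use JAKs. PPARγ binds DNA as a pair with RXR on an element called DR1, in which AGGTCA stands in tandem with 1 base between the copies.

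Peaks lay at 8 of the 46 receptor chain genes, at 1 of 4 JAK genes and at 0 of 6 STAT genes. Counts this small do not set the JAK and STAT genes apart from the receptor genes. The 9 genes were Il2ra, Il7r and Il15ra of the IL-2 family, Il6ra, Il6st and Il31ra of the IL-6 family, Il4ra, Il1rl1 and Jak2. They were 16.1% of the 56 genes (exact 95% binomial interval 7.62 to 28.3), whereas 7.68% of all 21851 protein-coding genes had an assigned peak. The interval includes the value of all genes, at its lower end. The territory of a gene, which is the sequence nearest to its TSS within 100 kb, was a median of 64.7 kb for the listed genes and 47.4 kb for all protein-coding genes. Per territory, the listed genes held 2.84 peaks per Mb and all protein-coding genes 1.36. A single gene, Il7r, held 4 of the 12 peaks, and without it the listed genes held 1.96 peaks per Mb. The nearest peak lay a median of 305.6 kb from the listed genes and 318.3 kb from all protein-coding genes. Each of the 9 genes had a peak within 20.3 kb of a TSS, and the nearest peak to any other listed gene was at 32.9 kb.

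**Figure D1:**
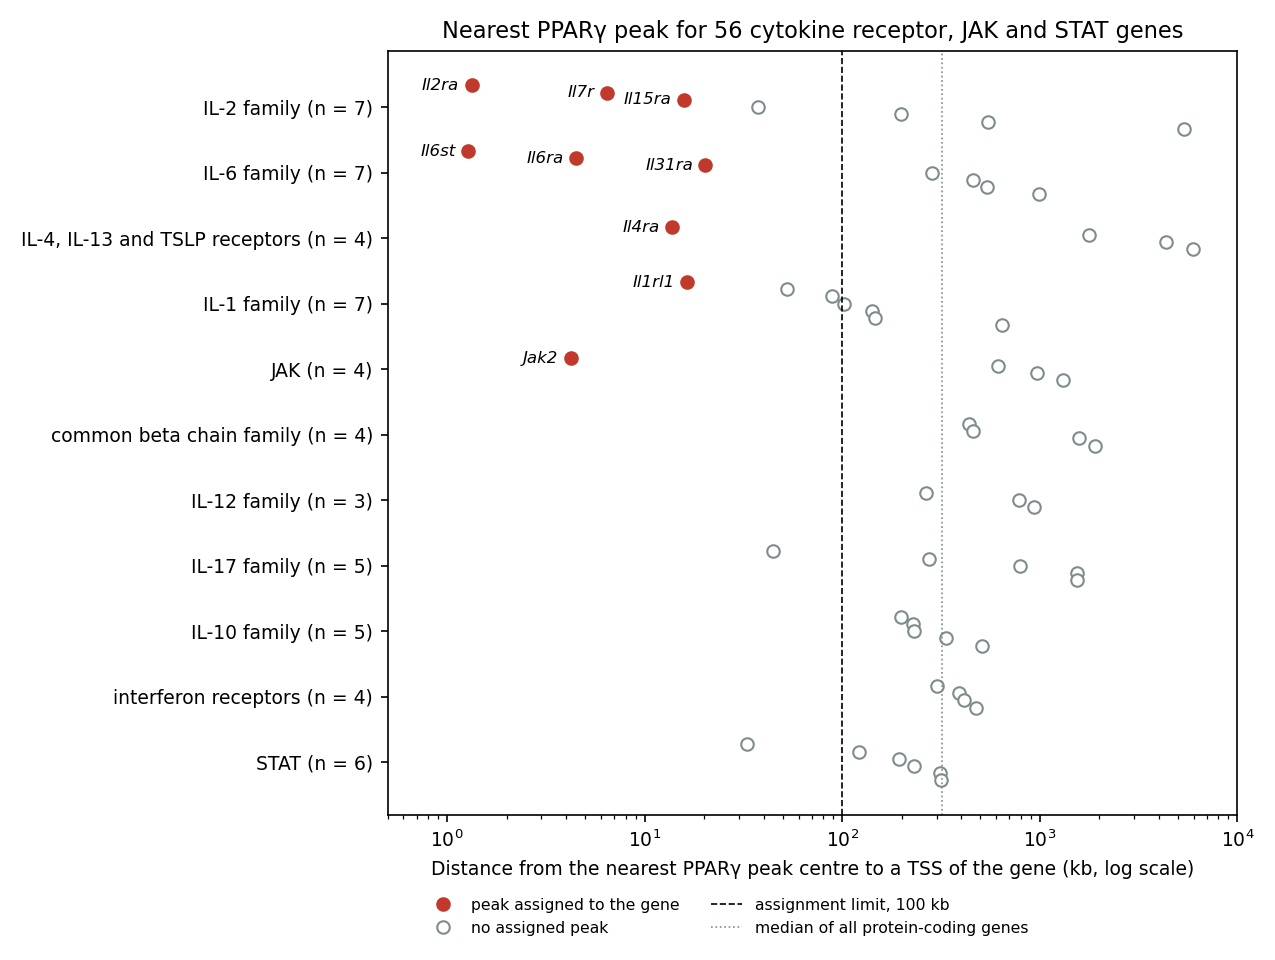
Each point is one of the 56 genes, placed by the distance in kb (log axis) from its TSS to the nearest PPARγ peak centre, in rows by receptor family. The 9 filled points are genes with an assigned peak, at 1.28 to 20.3 kb; the open points are genes without, the nearest of them at 32.9 kb.

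The sequences of 6 of the 12 peaks are given here from the reference genome GRCm38 (the assembly named mm10), plus strand, 5′ to 3′. The peaks of Il2ra, Il7r and Il6ra are shown because they hold a DR1 match, set in capitals; the match lies on the minus strand in all 3, so the capitals read as its reverse complement.
Il2ra, chr2:11641389-11641561: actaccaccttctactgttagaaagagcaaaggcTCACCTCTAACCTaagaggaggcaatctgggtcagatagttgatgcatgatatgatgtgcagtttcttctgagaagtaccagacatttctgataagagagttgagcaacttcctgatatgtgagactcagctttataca
Il7r, chr15:9536188-9536360: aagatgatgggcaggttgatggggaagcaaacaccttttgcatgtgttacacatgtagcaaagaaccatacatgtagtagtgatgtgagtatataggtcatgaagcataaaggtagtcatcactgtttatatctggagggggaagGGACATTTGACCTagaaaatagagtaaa
Il6ra, chr3:89917611-89917783: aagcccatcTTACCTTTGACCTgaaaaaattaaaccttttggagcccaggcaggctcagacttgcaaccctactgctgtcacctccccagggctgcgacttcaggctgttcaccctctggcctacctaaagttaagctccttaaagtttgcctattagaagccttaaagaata
Il6st is shown as the peak nearest to a TSS, and it held none of the 7 motifs first searched, although it has the single AGGTCA core described further on.
Il6st, chr13:112465306-112465478: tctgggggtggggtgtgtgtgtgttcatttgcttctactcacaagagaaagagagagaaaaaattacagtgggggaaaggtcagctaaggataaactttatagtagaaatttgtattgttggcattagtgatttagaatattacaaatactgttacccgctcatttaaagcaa
Il4ra and Il1rl1 are shown as the receptors of type 2 cytokines with a peak; capitals mark GATA sites in both, on either strand, and also AP-1 sites in Il1rl1.
Il4ra, chr7:125565810-125565982: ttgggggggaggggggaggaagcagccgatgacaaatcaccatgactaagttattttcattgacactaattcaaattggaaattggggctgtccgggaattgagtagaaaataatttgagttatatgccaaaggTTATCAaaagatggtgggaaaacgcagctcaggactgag
Il1rl1, chr1:40413130-40413302: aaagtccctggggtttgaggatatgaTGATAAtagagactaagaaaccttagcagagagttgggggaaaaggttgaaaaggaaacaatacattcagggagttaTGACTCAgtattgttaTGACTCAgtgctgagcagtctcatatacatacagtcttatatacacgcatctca

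In the IL-2 family, 3 of 7 genes had a peak, with 6 peaks in all. The family comprises the private chains that pair with the common gamma chain, and the common chain itself. Il2ra encodes the alpha chain that raises the affinity of the receptor for IL-2 in activated and regulatory T cells. Its peak lay in intergenic sequence 1.33 kb upstream of the TSS and held a DR1 match with 2 mismatches. The same peak held 2 GATA sites and a STAT site, TTCNNNGAA, 14 to 22 bp from the centre. A second peak (chr2:11689408-11689580) lay in the body of Il2ra, in the last of its 7 introns, 46.6 kb from the Il2ra TSS. That peak was 15.8 kb upstream of Il15ra, the alpha chain gene of the IL-15 receptor, and was therefore counted for Il15ra. Under the comprehensive transcript set of the same annotation, or when a gene body took its peaks first, this peak went to Il2ra, and Il15ra had no peak. A further peak, 24.1 kb upstream of Il2ra, was assigned to the predicted gene Gm17490, whose TSS was 7.57 kb from it. Il2ra thus had 3 peaks within 50 kb of its TSS, of which the TSS rule assigned 1 to it.

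Il7r, which encodes the IL-7 receptor alpha chain that naive and memory T cells need for survival, had 4 peaks spread over 101.6 kb. Among all protein-coding genes, 0.119% (26 genes) had 4 or more. The nearest, 6.44 kb upstream, held a DR1 match with 2 mismatches. The next lay 6.60 kb downstream, in intron 2 of 7 (chr15:9523142-9523314). The third was intergenic, 33.0 kb upstream (chr15:9562710-9562882). The fourth was 95 kb upstream (chr15:9624767-9624939), in intron 24 of 32 of Spef2, a gene of sperm flagella, and close to the assignment limit. With a limit of 50 kb, or when a gene body took its peaks first, Il7r kept 3 peaks. No other protein-coding TSS was within 100 kb of the 3 upstream peaks, and Capsl was 87.2 kb from the intronic peak.

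**Figure D2:**
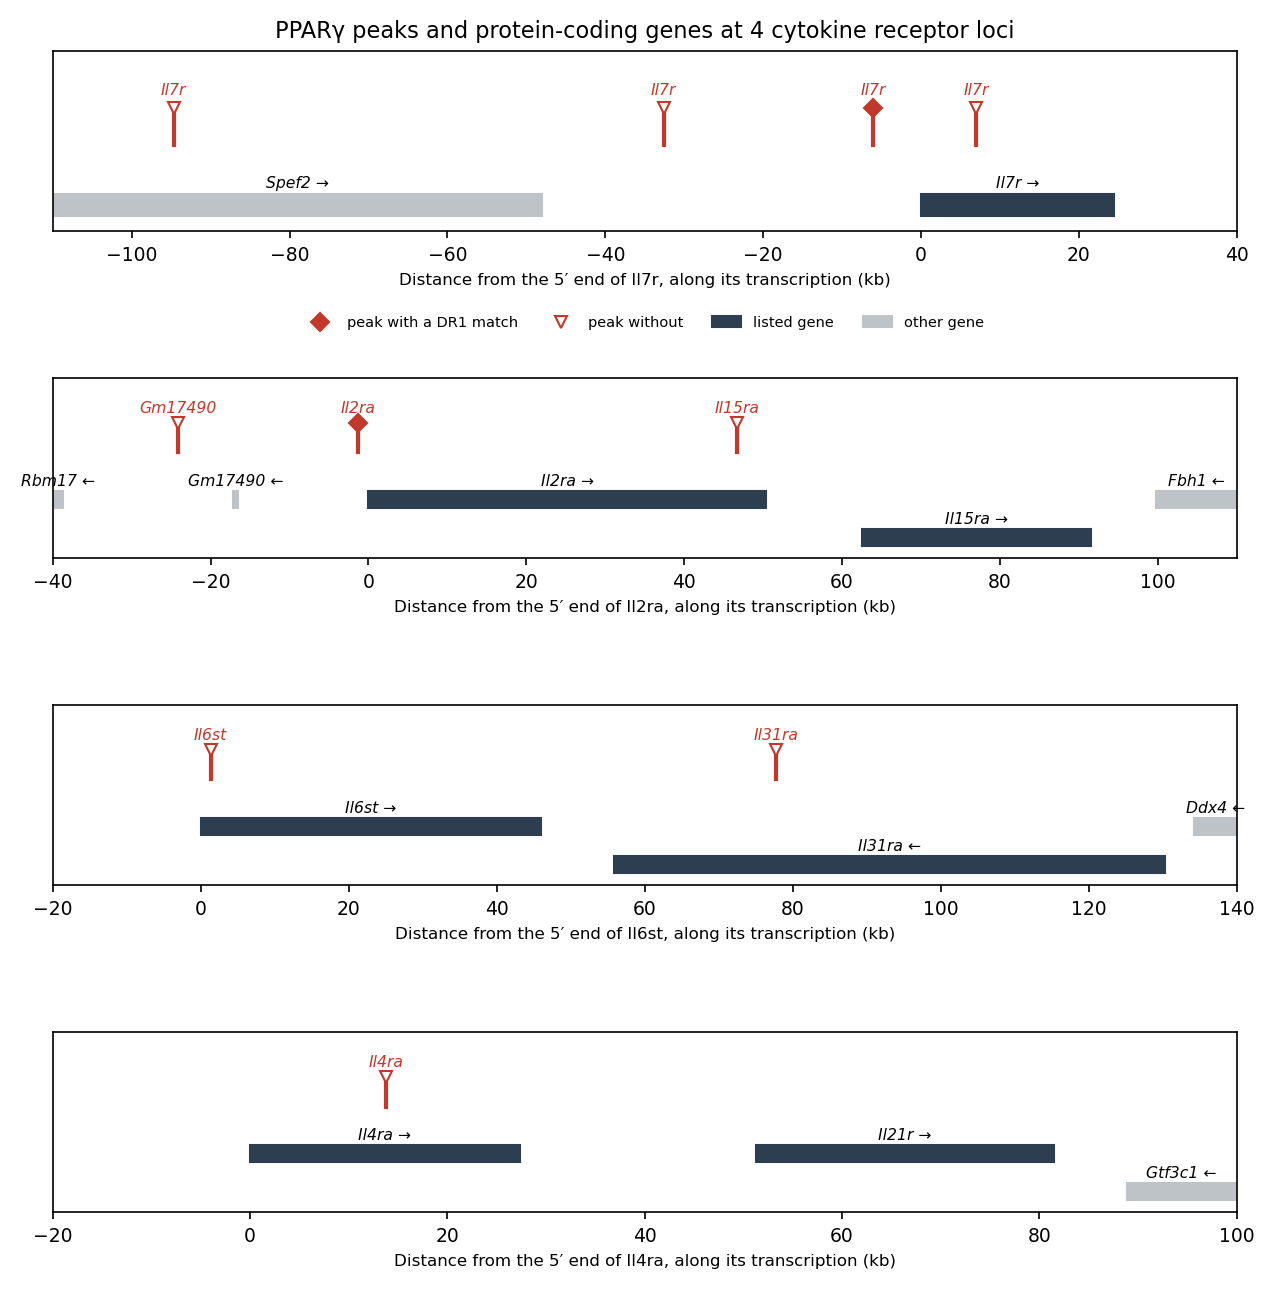
Maps of 4 loci, with the distance in kb from the 5′ end of the named gene along its transcription; bars are protein-coding genes with arrows for direction, and markers are PPARγ peaks labelled with the gene each was assigned to. Filled diamonds are peaks with a DR1 match, 1 at Il7r and 1 at Il2ra; the peak inside the last intron of Il2ra carries the label Il15ra.

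The other 4 genes of the family had no assigned peak. Il21r, the IL-21 receptor gene, is the neighbour of Il4ra, and its nearest peak was the Il4ra peak at 37.6 kb. The nearest peak was 197.7 kb from Il9r, 549 kb from Il2rb, the shared beta chain gene of the IL-2 and IL-15 receptors, and 5334 kb from Il2rg. Il2rg lies on the X chromosome in a territory of 2.52 kb, the smallest of the 56 genes. The family's 12.8 peaks per Mb of territory rested on Il7r: without that gene the value was 6.23.

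The IL-6 family likewise had peaks at 3 of 7 genes, and these included both chains of the IL-6 receptor. Il6ra encodes the chain that binds IL-6, and its peak lay 4.50 kb upstream with a DR1 match of 1 mismatch, the closest to the consensus among the 12 peaks. Il6st encodes gp130, the chain that carries the signal inside, and its peak lay in intron 1 of 16, 1.28 kb downstream of the TSS. Il31ra encodes the IL-31 receptor chain and lies next to Il6st in the opposite direction. Its peak (chr13:112541697-112541869) was in intron 9 of 16, 20.3 kb downstream of a TSS of Il31ra and 66.7 kb from that of Il6st. Lifr and Osmr, the receptor genes for LIF and oncostatin M, lie side by side and shared the same nearest peak at 538.4 and 283.8 kb. The nearest peak was 458.9 kb from Il11ra1 and 987.9 kb from Il27ra, the gene of an IL-27 receptor chain.

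Among 7 receptor genes for type 2 cytokines (Il4ra, Il13ra1, Il13ra2, Crlf2, Il5ra, Il1rl1 and Il17rb), Il4ra and Il1rl1 had a peak each. Il4ra encodes the chain shared by the receptors for IL-4 and IL-13, and its peak lay in intron 3 of 10, 13.8 kb downstream of the TSS, without a DR1 match. When noncoding genes could also take peaks, the Il4ra peak went to a noncoding gene. Il1rl1 encodes ST2, the IL-33 receptor, and its intergenic peak was 16.4 kb upstream, with 2 copies of the AP-1 site TGACTCA between 17 and 39 bp from the centre. Neither gene had a peak within 10 kb. The other 5 genes were far from any peak: 788.3 kb for Il17rb, a chain for IL-25, 1576 kb for Il5ra, the IL-5 receptor alpha chain gene, and 1772 kb for Crlf2, a chain for TSLP. Il13ra1 and Il13ra2, the genes of a signalling and a decoy receptor for IL-13, lie on the X chromosome with their nearest peaks at 5947 and 4351 kb.

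The IL-1 family had a peak at Il1rl1 and at no other of its 7 genes. These receptors signal through MyD88 and not through JAKs. Of these genes, 6 form a cluster on chromosome 1, and the Il1rl1 peak was the nearest peak for Il18r1 (52.3 kb), Il1rl2 (88.5 kb), Il18rap (102.1 kb) and Il1r1 (146.6 kb). Il18r1 and Il18rap encode the chains of the IL-18 receptor, and Il1r1 the signalling receptor for IL-1. The decoy receptor gene Il1r2, at the other end of the cluster, was 141.7 kb from another peak. Il1rap, the coreceptor gene on chromosome 16, was 642.5 kb from any peak. From Il1r2 to Il18rap the cluster held 1 peak, in the interval before Il1rl1.

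**Figure D3:**
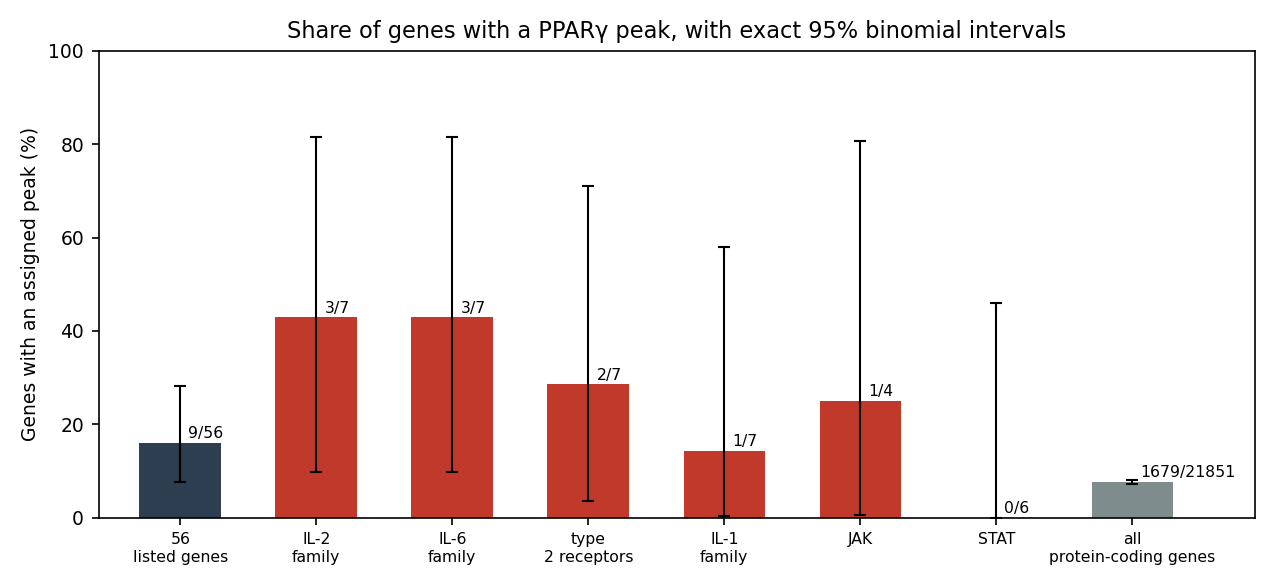
Bars give the percentage of genes with an assigned PPARγ peak, with the counts beside them and exact 95% binomial intervals, for the 56 listed genes, 6 groups among them and all 21851 protein-coding genes. The group of 7 type 2 receptors shares Il1rl1 with the IL-1 family, and the intervals of the groups overlap one another.

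Set side by side, the share of genes with a peak was 42.9% in the IL-2 family (interval 9.90 to 81.6) and 42.9% in the IL-6 family (the same interval). It was 28.6% among the type 2 receptors (3.67 to 71.0) and 14.3% in the IL-1 family (0.361 to 57.9). With 7 genes in each the intervals overlap widely, and no order among the families is drawn from them. The share of all protein-coding genes was 7.68%, and the families were drawn up when these peaks were already known. The IL-2 family had 2 genes with a peak in place of 3 when a gene body took its peaks first and under the comprehensive transcript set. It also had 2 with a limit of 10 kb and when noncoding genes could take peaks, and 4 when every gene within 100 kb was counted. The IL-6 family had 2 with a limit of 10 kb.

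The signalling genes behind the receptors were mostly without peaks, as were most genes. Of the 10 JAK and STAT genes 10% had one, near the 7.68% of all protein-coding genes. Of 4 JAK genes, Jak2 alone had a peak, 4.23 kb downstream of its TSS in intron 2 of 24. JAK2 serves receptors that include those for IFN-γ, IL-3, IL-5 and IL-12. The peak sequence, shown because it is a tandem array, repeats an 8 bp word, in capitals, 9 times.
Jak2, chr19:29256585-29256757: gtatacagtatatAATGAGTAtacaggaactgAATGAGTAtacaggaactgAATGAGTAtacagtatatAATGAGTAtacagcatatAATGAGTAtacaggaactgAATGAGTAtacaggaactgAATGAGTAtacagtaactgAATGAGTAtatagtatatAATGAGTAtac
The most repeated 8 bp word of each peak had at most 3 copies in the other 11 peaks and a median of 1 copy over all peaks, and 7 of the 2537 peaks, Jak2 included, had a word of that length with as many copies as the Jak2 peak. Shifted by 19 bp, 60.4% of its bases matched themselves. The best such match was 33.8 to 41.3% in the other 11 peaks and a median of 35.3% over all peaks, and 17 peaks (0.67%), Jak2 included, reached that value. The part of this repeat in the peak call was not tested. The nearest peaks of Tyk2, Jak3 and Jak1 were at 610.5, 968.8 and 1304 kb, Jak3 being the kinase of the common gamma chain.

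None of the 6 STAT genes had an assigned peak (0%, exact interval 0 to 45.9), against 7.68% of all protein-coding genes. The interval includes that share, so the count does not set the STAT genes apart. The nearest approach was at Stat2, a factor of the type I interferon response, 32.9 kb from a peak with a DR1 match in the promoter of Pan2, 52 bp from the Pan2 TSS. Stat4, the factor of IL-12 signalling, was 121.8 kb from a peak. Stat3, Stat5a and Stat5b, neighbours on chromosome 11, shared a nearest peak at 311.1, 231.1 and 194.3 kb. Stat6, the factor downstream of IL-4, was 317.1 kb from a peak. Il4ra, Il2ra and Il6ra, receptor genes that act through STAT6, STAT5 and STAT3, had peaks while these STAT genes had none within 100 kb. Il2rb and Il2rg, the other chain genes of the IL-2 receptor, also had none (549 and 5334 kb). No contrast between receptor and STAT genes is drawn from these counts.

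Outside these groups, 6 families with 27 genes had no assigned peak, the STATs among them. With 7.68% of all protein-coding genes having a peak, families of this size give no count that stands apart, and the narrowest of their exact intervals, that of the STAT genes, reached 45.9%. All 4 genes of the common beta chain family (Il3ra, Il5ra, Csf2rb and Csf2rb2, for IL-3, IL-5 and GM-CSF) were 438.7 to 1909 kb from a peak. The IL-12 family (Il12rb1, Il12rb2 and Il23r), receptors of TH1 and TH17 cells, was 264.1 to 934.9 kb away. The 4 interferon receptor genes were 300.1 to 474.4 kb away. The IL-10 family (Il10ra, Il10rb, Il20ra, Il20rb and Il22ra1) was 197 to 509.9 kb away. In the IL-17 family Il17rd, whose product restrains FGF signalling, was 44.8 kb from a peak 230 bp from the TSS of Hesx1, and Il17ra, Il17rb, Il17rc and Il17re were 273.8 to 1547 kb from one. Of all 47 genes without an assigned peak, 42 had none within 100 kb, and 9 had none within 1000 kb.

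Most peaks of the whole list lay outside promoters, as did the 12 peaks at these genes. A promoter was defined as the 1000 bp before a TSS and the 100 bp after it. None of the 12 lay in one, against 8.04% of all 2537 peaks. The exact interval, 0 to 26.5%, includes that share, so the count does not set these genes apart. Introns held 7 of the 12 (58.3%), against 52.4% of all peaks, and intergenic sequence held 5 (41.7%), against 36%. The centres lay a median of 10.2 kb from the TSS, with a range of 1.28 to 95 kb, whereas all assigned peaks had a median of 16.4 kb. GC content was a median of 41.3% in the 12 peaks and 43.9% in all assigned peaks. The centre of 1 peak, that in the last intron of Il2ra, was repeat-masked (8.33%), against 16.2% of all peaks.

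The motif content was near that of the whole list. A DR1 match, with up to 2 of the 12 fixed bases different and within 100 bp of the centre on either strand, occurred in 3 of the 12 peaks (25%, interval 5.49 to 57.2) and in 19.8% of all peaks. On the strand of the motif the 3 matches read as follows.
Il6ra DR1: AGGTCAAAGGTAA
Il2ra DR1: AGGTTAGAGGTGA
Il7r DR1: AGGTCAAATGTCC
Counting from the 5′ end of the element, with the consensus base first, Il6ra differed by C12A, Il2ra by C5T and C12G, and Il7r by G9T and A13C. All 3 matches lay to the side of their peaks, 71, 46 and 65 bp from the centre for Il6ra, Il2ra and Il7r. Over all peaks with a match the median was 30 bp, and 34.9% lay at 46 bp or more. In a window of 100 bp, no listed peak held a match, against 12.7% of all peaks.

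An exact AGGTCA core, searched after the sequences had been seen, occurred in 6 of the 12 peaks (50.0%, interval 21.1 to 78.9) and in 27.8% of all peaks. This count overlaps that of the DR1 matches. The Il6ra core was part of its DR1 match, and the 6.44 kb peak of Il7r held a core inside its DR1 match and another outside it. The cores in the intronic peaks of Il6st and Il7r shared a run of 11 bases that includes AGGTCA. Capitals mark the core, with 7 bases on each side.
Il6st core: gggggaaAGGTCAgctaagg
Il7r intron core: gacacaaAGGTCAgctgtgg
Both read AAAGGTCA, as a DR1 does from the end of its first copy onward when the spacer is A, but neither reached a DR1 match with 2 mismatches. The Il6st core lay within 9 bp of the peak centre and the Il7r core at 35 to 40 bp.

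**Figure D4:**
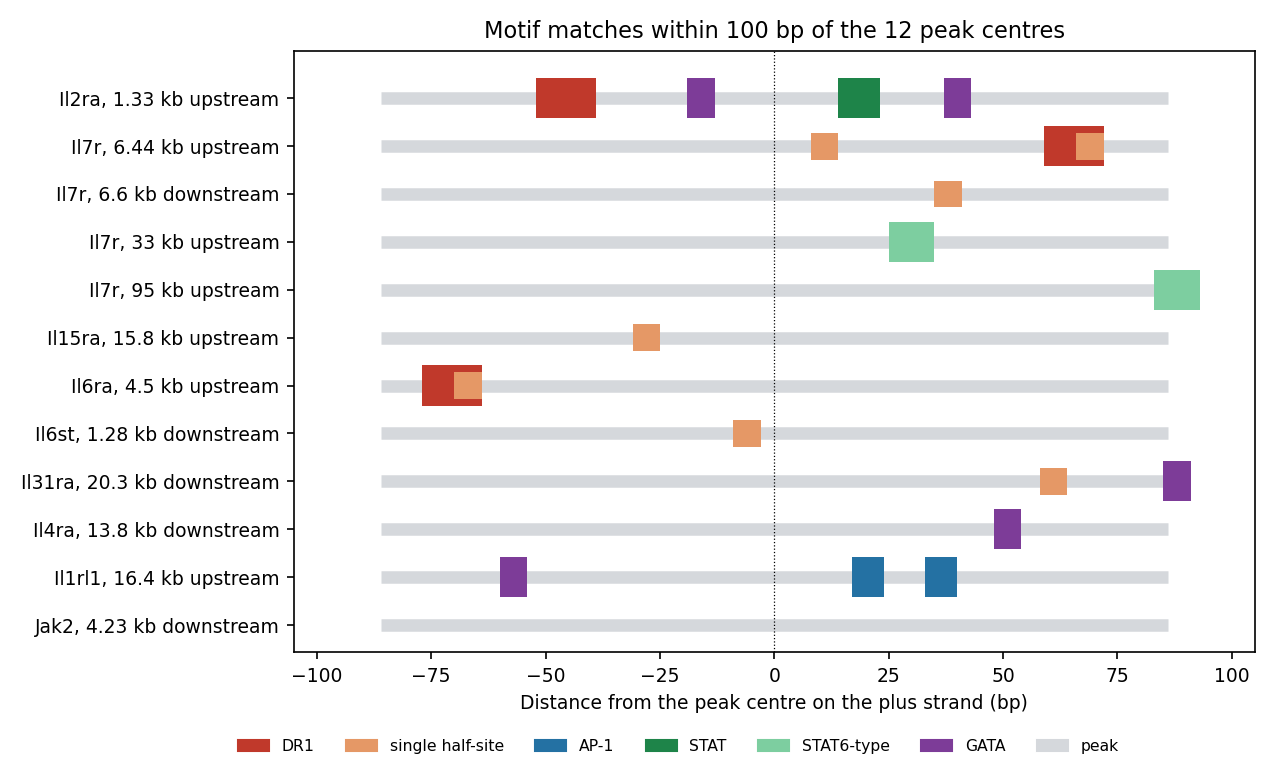
Each grey bar is 1 of the 12 peaks, labelled with its gene and distance to the TSS, and coloured boxes are motif matches by their distance in bp from the peak centre on the plus strand. The 3 DR1 matches lie at 46 bp or more from the centre, and the Jak2 peak holds no match.

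Sites of T cell factors were counted in the same windows. GATA sites (GATA with A or T before it and A or G after it) occurred in 4 of the 12 peaks, those of Il2ra, Il4ra, Il1rl1 and Il31ra (33.3%), against 37.6% of all peaks. The AP-1 site (TGAGTCA or TGACTCA) occurred at Il1rl1 alone (8.33%), against 17.9%. The STAT site TTCNNNGAA occurred at Il2ra alone (8.33%), against 9.89%. The STAT6-type site, TTC and GAA with 4 bases between them, occurred in the 33.0 kb and 95 kb peaks of Il7r (16.7%), against 8.04%. ETS sites (ACCGGAAG or ACAGGAAG) and RUNX sites (TGTGGTTT, TGCGGTTT or TGTGGTTA) occurred in none of the 12 peaks (interval 0 to 26.5 for each), against 3.9% and 4.81% of all peaks. None of the 7 motifs was found in 4 of the 12 peaks (33.3%), against 31% of all peaks: those of Il6st, Il15ra and Jak2 and the intronic peak of Il7r. These counts are too small to separate the listed peaks from the whole list.

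Genes on either side of the receptors in the pathway were counted under the same rule. Their lists were chosen with earlier results of these data known, so the shares are description and were not tested. Of 18 genes that restrain JAK and STAT signalling, 6 had a peak (33.3%, against 7.68% of all protein-coding genes): Socs1 and Ptpn1 with 3 each, and Socs2, Socs3, Socs5 and Ptpn2 with 1 each. SOCS proteins bind receptors and JAKs and block them, and Ptpn1 and Ptpn2 encode phosphatases that act on JAKs and STATs. The nearest were at 0.431 kb for Ptpn2 and 1.13 kb for Socs3, closer than any receptor peak. The nearest peaks of Socs5, Socs2, Socs1 and Ptpn1 were farther, at 11.4, 25.7, 30.8 and 75.2 kb. Of 20 cytokine ligand genes, Il10 with 3 peaks and Lif with 2 had a peak (10%, near the 7.68% of all protein-coding genes). Lif, the ligand of a gp130 receptor, had its nearer peak at 3.51 kb, and 1 of its peaks held a DR1 match. The other listed ligands of receptors with peaks had none assigned. Of the gp130 ligands, Osm was 27.2 kb, Il27 10.5 kb and Il6 119.6 kb from the nearest peak. Il13 and Il4, ligands of the Il4ra chain, were 79.1 and 95.1 kb from one, and Il33, the ligand of Il1rl1, 179.7 kb. Il2, Il15 and Il7 were 263.7, 469.8 and 2598.5 kb from one. None of 10 further receptor genes that couple to JAKs, such as Csf3r, Epor, Lepr and Ghr, had one; the nearest peak among them was 75.4 kb from Csf3r. A count of 0 among 10 is near the share of all genes.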

How the data were processed

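Peaks came from 1 ChIP library of mouse TH2 cells, with 1 input library as control. The authors aligned reads to mm10 with Bowtie2, kept tags with a unique position and ran HOMER's peak caller, steps that the submitters' processing notes and the series text record without versions. A peak needed 8 tags, the threshold for a false discovery rate of 0.001 per the file headers, and each peak needed a 4-fold excess over the input and over the surrounding 10000 bp. Reads from exact repeats are lost to unique alignment. The deposited score column holds 1 in every row, so it ranks nothing.

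Coordinates are printed counting from 1. Genes and TSSs were protein-coding transcripts of the GENCODE vM21 basic set on GRCm38, with 56 of 56 symbols matched. Sequence was read from the RefSeq FASTA of GRCm38.p6, and repeats from its soft masking. Both strands of 200 bp windows were searched for motifs. Intron numbers refer to the longest protein-coding transcript. The nearest-TSS and motif searches were checked on simulated data. The 56 genes, the families and the pathway lists were chosen with earlier results of these data known. Every listed gene with a peak is named. No test was made between lists, since 1 library has no replicate error; the 95% intervals are exact (Clopper-Pearson) and cover counting error only. Python 3.11.15, pandas 2.3.3, scipy 1.17.1, pysam 0.24.0 and matplotlib 3.10.9 were used.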

Additional observations from a re-analysis of the deposited data

How the results depend on the processing

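No paired analysis was possible because there is 1 ChIP library. With a limit of 10 kb, 5 listed genes (8.93%, against 3.38% of all protein-coding genes) and 6 peaks remained, with 0 type 2 receptors and 0 IL-1 family genes. When noncoding genes could take peaks, 7 genes had one (12.5%, against 4.84% of all protein-coding genes), 1 of them a type 2 receptor. When every gene within 100 kb of a peak was counted, 14 genes had one (25%, against 23.5% of all protein-coding genes), with 3 in the IL-1 family. The first 1268 of the 2537 rows, whose order the file does not state, gave 8 genes (14.3%, against 4.33% of all protein-coding genes). These held 1 type 2 receptor and 0 IL-1 family genes. A limit of 50 kb, no limit and 1 TSS per gene gave the same 9 genes (16.1%, against 6.76%, 8.59% and 7.51% of all protein-coding genes). The gene body rule gave 8 of them, as did the comprehensive transcript set, an alternative added after the data were seen. That was 14.3% in both, against 7.92% and 7.95% of all protein-coding genes. The DR1 share was 0% in 100 bp windows, against 12.7% of all peaks, and 33.3% in 400 bp windows, against 24.9%. It was 8.33% with 1 mismatch, against 6.42% of all peaks, and 50.0% with 3, against 48.3%. A promoter of 2000 bp upstream to 500 bp downstream held 1 peak. In 100 bp windows 1 peak held a GATA site and 1 a STAT6-type site; in 400 bp windows 2 held an AP-1 site and 5 a STAT6-type site. The cause was not tested, beyond the change in distance, window or rule itself.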
